A study of Homo sapiens with 20 samples.

Results

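The zinc-finger genes of chromosome 19 belong to the largest family of human DNA-binding proteins, and cohesin peaks were counted here over the members that the chromosome carries. A member was a protein-coding gene of GENCODE 44 on chr19 of hg38 whose symbol is ZNF followed by digits, with or without a final letter. There were 246 members among the 1476 protein-coding genes of chr19 and the 20046 of the annotation, and the other 1230 genes of chr19 served for comparison. The rule used the symbol and the chromosome only, and no peak. The cohesin subunits RAD21, SA1 and SA2 had each been mapped by ChIP-seq, the sequencing of DNA that an antibody pulls down with its protein, in 2 lines immortalised with telomerase. These were RPE-1 cells, of retinal pigmented epithelium, and CHM13 cells, isolated from a hydatidiform mole. The groups were untreated, with 3 replicates per subunit in CHM13 cells and 2 in RPE-1 cells, and with total chromatin as input (20 libraries). The RAD21 antibody was not the same for both lines, so line and antibody cannot be told apart for RAD21. For all subunits the sonicator also differed between lines, and only CHM13 chromatin carried a Drosophila spike. A peak had to occur in at least 2 replicates, which means both of RPE-1 cells and any 2 of 3 of CHM13 cells. Line and preparation therefore cannot be told apart for SA1 and SA2 either.

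Most proteins of this family carry an array of C2H2 fingers, each a short fold held by a zinc ion between 2 cysteines and 2 histidines, and many carry a KRAB domain at the other end of the protein. The KRAB domain recruits TRIM28 and, through it, the histone methyltransferase SETDB1 and HP1 proteins, which pack the bound DNA into heterochromatin. Many members bind transposable elements, and the family grew by tandem duplication, which left its genes in clusters. RAD21 closes the cohesin ring, and SA1 and SA2 are the alternative subunits bound to it. Cohesin that extrudes loops is halted at sites bound by CTCF, itself a C2H2 protein.

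The values were 6 lists of peaks, 1 for each line and subunit, in which replicates had been merged. A list holds positions and no height, so genes could be counted by presence of a peak and no spread between replicates can be given. Intervals below are at 95% and cover counting error only, and neighbouring genes can share a peak. The size of the lists ranged from 6416 peaks (RPE-1 SA2) to 73881 (CHM13 RAD21). On chr19 the CHM13 lists held 1604 RAD21, 980 SA1 and 944 SA2 peaks, and the RPE-1 lists 560, 240 and 215. Levels were therefore compared between members and other genes within a list. Members, from start to 3′ end, covered 12.9% of the sequenced bases of chr19 and held the centres of 5.05% of its RAD21 peaks, 4.39% of its SA1 peaks and 2.97% of its SA2 peaks in CHM13 cells. In RPE-1 cells these shares were 2.14%, 2.08% and 1.86%.

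Of the 246 members, 151 (61.4%) had no peak of any list from 1 kb before the start to 1 kb past the 3′ end, against 578 (47.0%) of the other genes. At the other extreme, 1 member (0.407%) had a peak in all 6 lists, against 88 (7.15%) of the other genes. That member was ZNF536, a regulator of neuronal differentiation and the longest member at 488696 bp, and the lists held 6, 5 and 3 centres of RAD21, SA1 and SA2 peaks in it in CHM13 cells, while the RPE-1 lists held 2, 1 and 1. A further 6 members (2.44%, against 5.12% of the other genes) were reached by 5 lists. They were ZNF846, ZNF627, ZNF491, ZNF565, ZNF577 and ZNF329, which were picked out after their values were seen.

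Starts of members had a peak slightly less often than those of other genes, by differences within counting error. A RAD21 peak of CHM13 cells lay within 1 kb of the start of 54 members (21.95%, Wilson interval 17.2 to 27.5%), with 23.1% of the other genes as background. The difference of -1.14 percentage points had an interval from -6.45 to 4.89. For SA1 the count was 25 members (10.2%) against 14.5%, and for SA2 it was 15 members (6.10%) against 8.86%. In RPE-1 cells 6 members (2.44%) had a RAD21 peak at the start against 4.31%, 1 member (0.407%) an SA1 peak against 1.63%, and 1 member an SA2 peak against 1.71%. Members were lower in each list, but all 6 intervals of the difference held 0. This call depended on the setting. With a window of 2500 bp the interval lay below 0 for SA1 (-10.7 to -1.25) and SA2 (-8.64 to -0.437) of CHM13 cells and for RAD21 of RPE-1 cells (-6.23 to -0.0215), and with peaks shared by all 3 subunits it lay below 0 in the CHM13 lists (-6.52 to -0.714 for RAD21). When any annotated transcript start counted, the interval lay below 0 in all 6 lists (-6.50 points for RAD21 of CHM13 cells, interval -12.2 to -0.192). When the other genes were only the 112 that start inside the clusters of members, the sign turned in favour of members for RAD21 in CHM13 cells (21.95% against 15.2%, difference 6.77, interval -2.34 to 14.6).

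**Figure D1:**
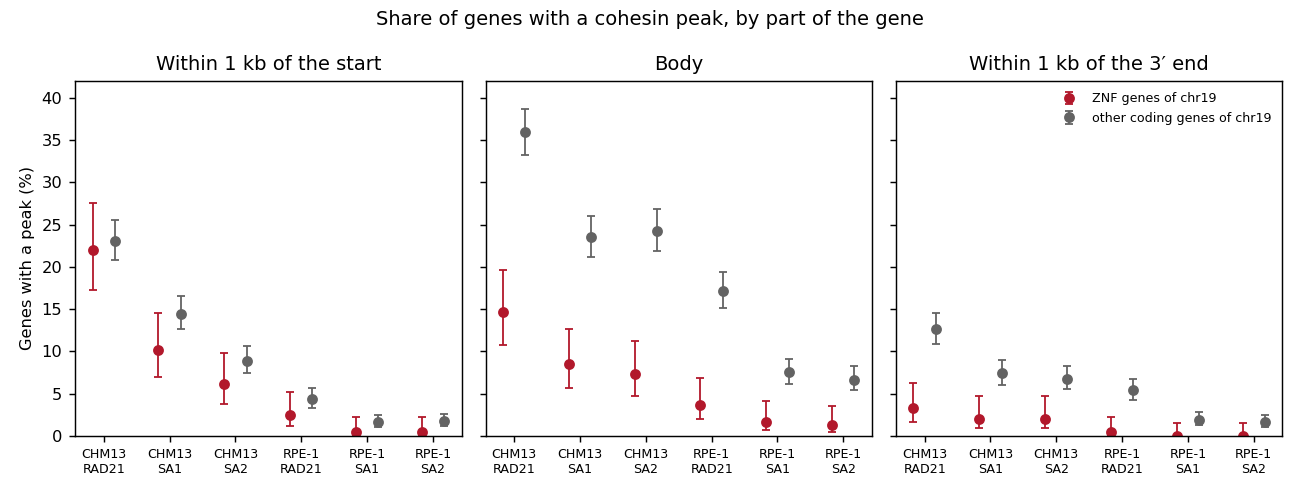
Share of genes (%) with a peak within 1 kb of the start, in the body between these windows, or within 1 kb of the 3′ end, for 246 members (red) and the other protein-coding genes of chr19 (grey), in each of the 6 lists. Bars are Wilson 95% intervals. The points of both classes lie close together at starts (21.95% and 23.1% for RAD21 in CHM13 cells) and apart in bodies (14.6% and 35.9%).

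No member had a start peak in all 6 lists, which allows up to 1.22%. Of the other genes 15 (1.22%) had one, so no difference was detectable. ZNF491 and ZNF329 had one in 5 lists, ZNF700, ZNF20, ZNF616 and ZNF865 in 4, and ZNF763, ZNF114 and ZNF460 in 3, while 43 members had one in a single list and 182 (74.0%) in none. These members too were picked out after their values were seen. The shares of members were 0.813% for 5 lists, 1.63% for 4, 1.22% for 3 and 17.5% for 1. Among other genes these shares were 0.813%, 1.95%, 3.66% and 15.6%, and 72.6% had none. The 6 RAD21 start peaks of RPE-1 cells lay at ZNF491, ZNF700, ZNF20, ZNF616, ZNF865 and ZNF329. The SA1 start peak of RPE-1 cells was at ZNF329 and the SA2 start peak at ZNF491, so the 2 members that share 5 lists lacked a different SA subunit. Each of these RPE-1 peaks overlapped a peak of the same subunit in CHM13 cells, as did all those at other starts.

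The bases just before the starts of ZNF491 and ZNF329 are shown because they lay inside the peaks of 5 lists, beside those of ZNF91, a member next to the centromere with no peak in any list. Each is the 120 bases of hg38 before the annotated start, read 5′ to 3′ in the direction of transcription, with CpG in capitals. They come from chr19:11797547-11797666 (plus strand), chr19:58155111-58155230 (minus strand) and chr19:23395472-23395591 (minus strand), and none overlaps an annotated exon.
ZNF491: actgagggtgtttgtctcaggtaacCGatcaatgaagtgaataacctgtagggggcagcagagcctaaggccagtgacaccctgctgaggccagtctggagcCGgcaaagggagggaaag
ZNF329: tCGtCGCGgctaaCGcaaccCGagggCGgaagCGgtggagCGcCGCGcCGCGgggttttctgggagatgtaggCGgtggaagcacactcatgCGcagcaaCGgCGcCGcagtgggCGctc
ZNF91: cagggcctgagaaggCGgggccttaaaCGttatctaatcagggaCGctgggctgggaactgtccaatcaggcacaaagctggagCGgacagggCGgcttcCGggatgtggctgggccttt
The 2 starts with peaks differ from each other more than either does from ZNF91 in this respect, with 2 CpG at ZNF491, 18 at ZNF329 and 6 at ZNF91. Over whole start windows the median GC content was 54.4% in the 54 members with a RAD21 start peak of CHM13 cells and 51.5% in the 192 without one. Among other genes these medians were 60.6% and 57.4%.

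Bodies of members held far fewer peaks. Between the start and end windows, 36 of 246 members (14.6%) had a RAD21 peak of CHM13 cells, against 35.9% of other genes, a difference of -21.3 percentage points (Newcombe interval -26.1 to -15.7). For SA1 there were 21 members (8.54%) against 23.5%, and for SA2 18 members (7.32%) against 24.3%. In RPE-1 cells 9 members (3.66%) had a RAD21 body peak against 17.1%, 4 members (1.63%) an SA1 peak against 7.5%, and 3 members (1.22%) an SA2 peak against 6.64%. All 6 intervals lay below 0. The median length was 25902 bp in members and 13908 bp in other genes. Against the 325 other genes of the lengths of the members' middle quartiles, the difference for RAD21 in CHM13 cells was -28.8 points.

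Per Mb of whole gene, start and end windows included, RAD21 of CHM13 cells had 10.8 peak centres in members and 32.4 in other genes, a ratio of 0.332 (conditional exact interval 0.261 to 0.418). The ratio was 0.344 for SA1 and 0.223 for SA2. The RPE-1 ratios were 0.152 (RAD21, 0.0774 to 0.269), 0.165 (SA1) and 0.146 (SA2), from 12, 5 and 4 peaks in members. In the body alone, without these windows, the CHM13 ratios were 0.240 (RAD21, 0.176 to 0.321), 0.285 (SA1) and 0.218 (SA2), with 0.140, 0.181 and 0.164 in the RPE-1 lists. Leaving out ZNF536, a choice made after its values were seen, gave 0.329 over whole genes for RAD21 in CHM13 cells. Members had a GC content of 43.2% against 51.5% for other genes, and peaks lay in sequence richer in GC (55.5% for RAD21 of CHM13 cells). Against the 104 other genes that had the GC content of the members' middle quartiles, also chosen after the values were seen, the ratio was 0.441 (0.317 to 0.615) for RAD21 in CHM13 cells and 0.261 (0.115 to 0.574) in RPE-1 cells, and for SA2 in RPE-1 cells it was 0.314 with an interval past 1 (0.0622 to 1.46). In members 0.945% of 100-base stretches occurred again on chr19 and in other genes 0.796%.

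**Figure D2:**
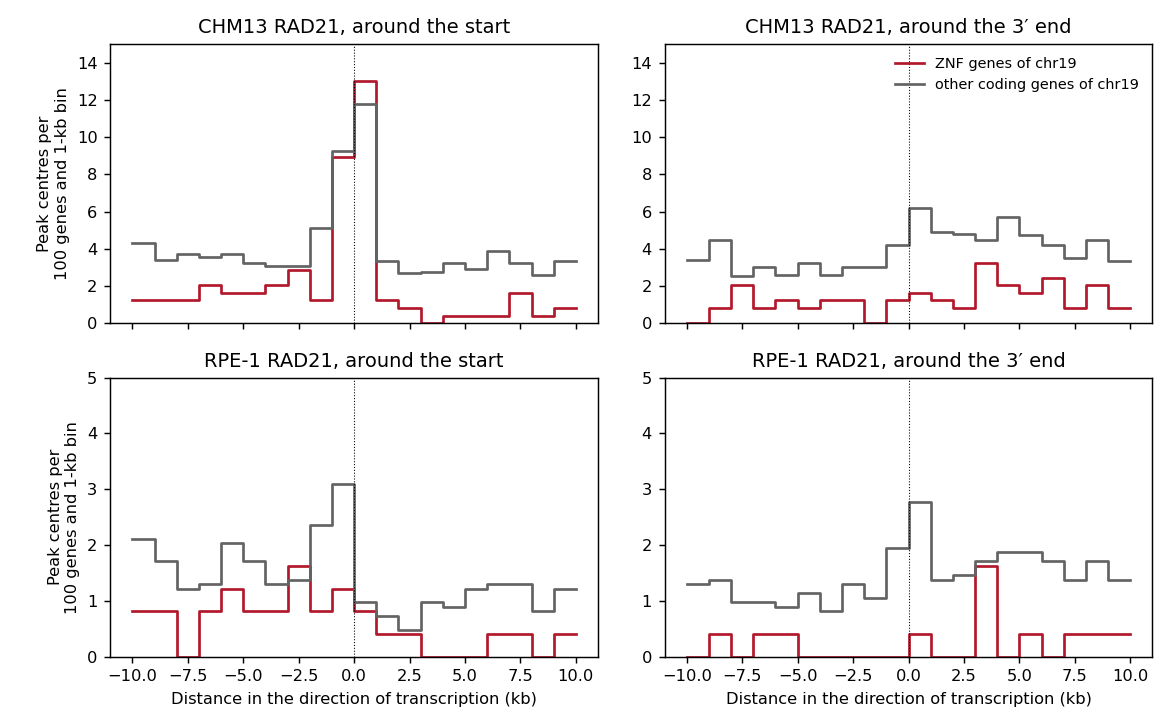
RAD21 peak centres per 100 genes in 1-kb bins, from 10 kb before to 10 kb after the start or the 3′ end in the direction of transcription, for members (red) and other genes of chr19 (grey), in CHM13 cells (top) and RPE-1 cells (bottom, smaller axis). In CHM13 cells members reached 8.94 and 13.0 centres per 100 genes in the bins before and after the start and 1.22 in the bin from 1 to 2 kb.

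The 3′ ends of members were nearly free of cohesin peaks. Heterochromatin of members is known to be deepest toward the 3′ end, where ZNF274, itself a member, binds finger sequences and recruits SETDB1. Within 1 kb of the end, RAD21 of CHM13 cells had a peak at 8 members (3.25%) against 12.6% of other genes, a difference of -9.35 points (interval -11.9 to -5.85). The 8 were ZNF653, ZNF625, ZNF574, ZNF575, ZNF600, ZNF772, ZNF586 and ZNF552, named after their values were seen. SA1 had a peak at 5 member ends (2.03%) against 7.4%, and SA2 at 5 against 6.75%. In RPE-1 cells only ZNF625 had a RAD21 peak at its end (0.407%, against 5.37%). The SA lists of RPE-1 cells had none at 246 ends, which allows a share of up to 1.22%, against 1.87% and 1.63% of other genes. The interval for SA2 of RPE-1 cells reached 0.0141. Against other genes of the members' middle GC content the difference at ends was smaller and its interval held 0 in all 6 lists (-2.52 points for RAD21 in CHM13 cells, interval -8.97 to 1.82, and -2.48 in RPE-1 cells). All 246 members stayed in this comparison, so the 2 sides were not matched for GC.

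The array of fingers lies almost wholly in the last coding exon. Of 3099 C2H2 motifs found in the translated members, 3075 (99.2%) were in it, with a median of 12 motifs per protein and a range from 1 to 36. This exon had a median length of 1529 bp in members and 156 bp in other genes. Over all members it came to 0.379 Mb and held 1 RAD21 peak centre of CHM13 cells (2.64 per Mb), against 14 (36.3 per Mb) in the last coding exons of other genes. The other 5 lists had no centre there, which allows up to 7.92 per Mb from 3 counts. For SA1 and SA2 of CHM13 cells the other genes had 18.2 and 13.0 per Mb, above this limit. In RPE-1 cells the other genes had 2.60 to 5.19 per Mb, below it, so a difference was not detectable there. Counted by overlap, a RAD21 peak of CHM13 cells touched this exon in 3 members (1.22%) and in 53 other genes (4.31%). The GC content of the exon was 43.3% in members and 61.8% in other genes, and the part of this in the difference was not tested. In introns of members RAD21 of CHM13 cells had 9.43 centres per Mb against 30.0 in introns of other genes.

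The fingers of ZNF91 show what such an exon looks like. ZNF91 binds SVA retrotransposons, and its last coding exon of 3320 bp carries 31 motifs, 27 of them exactly 28 codons from the next, with no peak of any list. Units from the middle of the array follow, each 84 bases of hg38 on the minus strand (chr19:23360918-23361001, chr19:23360834-23360917 and chr19:23360750-23360833). Capitals mark the codons of the 2 cysteines and 2 histidines.
Unit 1: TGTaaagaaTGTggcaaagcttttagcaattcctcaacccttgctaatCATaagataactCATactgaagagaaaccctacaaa
Unit 2: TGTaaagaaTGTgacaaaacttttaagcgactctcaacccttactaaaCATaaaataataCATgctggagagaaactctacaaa
Unit 3: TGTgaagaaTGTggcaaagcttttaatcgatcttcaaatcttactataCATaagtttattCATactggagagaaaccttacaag
The first and second units share 67 of 84 bases, and the third shares 66 with each. In last coding exons of members 2.03% of 100-base stretches occurred again on chr19, against 2.79% in those of other genes.

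Clusters were runs of at least 5 members with no more than 500 kb between neighbours, each named by its first and last member. There were 10, which held 232 members, and 14 members lay in none. Together they had 13.2 RAD21 peak centres per Mb in CHM13 cells against 32.1 in the rest of chr19, a ratio of 0.413 (0.353 to 0.480). The ratio was 0.370 for SA1 and 0.338 for SA2, and the RPE-1 lists gave 0.299, 0.403 and 0.296 in the same order of subunits. Inside clusters the RAD21 density of CHM13 cells was 10.1 per Mb in members, from start to end, and 16.0 between them, and in RPE-1 cells 1.04 and 5.58.

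The cluster next to the centromere, ZNF101 to ZNF254, had the lowest density of RAD21 and of both SA subunits in CHM13 cells. It spans chr19:19668796-24129968 with 37 members and ends 0.571 Mb from the block of CENP-B boxes (chr19:24701103-27288199), the binding sites of the centromere protein CENP-B, which held 5754 matches. The next nearest cluster, ZNF302 to ZNF792, lay 7.39 Mb from that block. The 4.46 Mb of the cluster held 13 RAD21 peaks of CHM13 cells (2.91 per Mb), against 17.9 per Mb over the other 9 clusters, which ranged from 8.56 to 26.9. The ratio was 0.163 (0.0851 to 0.286), while SA1 gave 0.134 (0.0480 to 0.302) and SA2 gave 0.125 (0.0397 to 0.304). A single RAD21 peak of RPE-1 cells lay in it (0.224 per Mb against 4.92, ratio 0.0455, interval 0.00113 to 0.266). Neither SA list of RPE-1 cells had a peak there (0 peaks), which allows up to 0.672 per Mb, against 2.81 and 1.91 per Mb in the other clusters. Empty lists of RPE-1 cells were not particular to this cluster. ZNF554 to ZNF77 lacked peaks of every subunit, and ZNF302 to ZNF792 lacked SA1 peaks. ZNF565 to ZNF573 and ZNF264 to ZNF446 lacked SA2 peaks. All of them are shorter, so a count of 0 there allows more, from 1.83 to 24.0 per Mb. Since 1 cluster only is next to the centromere, its position and its other properties cannot be told apart. It also had the lowest GC content of the 10, 41.2% against 42.7 to 47.9%, and the part of this in its low density was not tested.

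**Figure D3:**
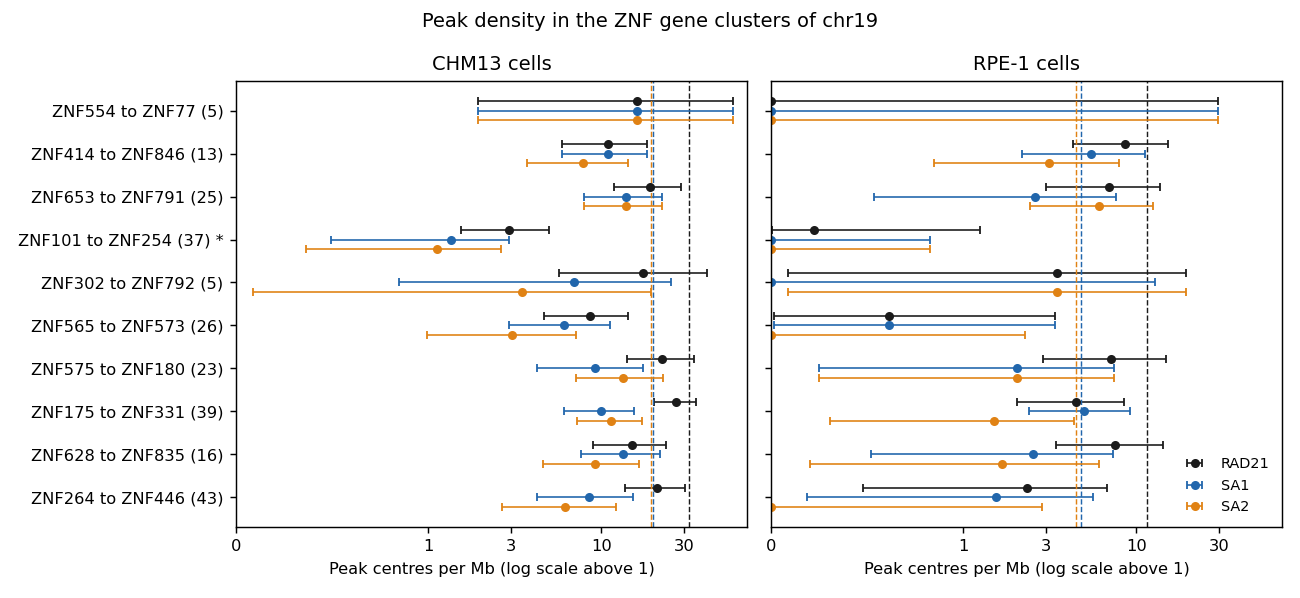
Peak centres per Mb in each cluster of members, ordered along chr19, in CHM13 cells (left) and RPE-1 cells (right), on an axis that is logarithmic above 1 and linear below. The number of members stands in brackets, the asterisk marks the cluster next to the centromere, bars are exact Poisson 95% intervals and dashed lines give the density outside the clusters. The marked cluster lies at 2.91 (RAD21), 1.34 (SA1) and 1.12 (SA2) per Mb in CHM13 cells, left of all others.

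Within this cluster a single member, ZNF254, had a RAD21 peak of CHM13 cells at its start (1 of 37, 2.70%), against 52 of 195 members in the other clusters (26.7%). The difference was -24.0 points (interval -30.9 to -11.5). SA1 of CHM13 cells had none of 37 (up to 8.11% allowed) against 11.8%, and SA2 none against 7.18%, where the interval of the difference held 0 (-11.7 to 2.65). The ZNF254 peak was 1011 bp wide and no other list had one there. The longest stretch without a RAD21 peak of CHM13 cells ran over 847 kb (chr19:21698650-22545754), and in RPE-1 cells over 2927 kb. The 500 kb on either side had 14 RAD21 peaks per Mb, within the range of the flanks of the other clusters (9.43 to 65.0). Outside this cluster the members still had a RAD21 density 0.413 times that of other genes in CHM13 cells (0.322 to 0.522), a split made after the values were seen.

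Among the other clusters, ZNF175 to ZNF331 at chr19:51571283-53580269 was the densest for RAD21 in CHM13 cells, with 26.9 peaks per Mb (20.2 to 35.1), of which 44.5 per Mb lay between its 39 members and 15.5 per Mb in them. ZNF565 to ZNF573 was the sparsest of the 9 (8.56 per Mb, 4.68 to 14.4). Both were picked out by these densities, and no test of their difference is given. In RPE-1 cells the order differed, with ZNF414 to ZNF846 first for RAD21 at 8.57 per Mb (4.28 to 15.3). ZNF264 to ZNF446, the cluster with the most members, also had the most with a RAD21 start peak in CHM13 cells, 14 of 43 (32.6%). By share ZNF302 to ZNF792 was first, with 3 of 5 (60%). Over the 9 clusters away from the centromere the share was 26.7%. In ZNF653 to ZNF791, where ZNF491, ZNF700 and ZNF20 lie, 7 of 25 members had a RAD21 start peak in CHM13 cells, and 3 in RPE-1 cells, more than in any other cluster of that list.

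In each cluster the member with the most RAD21 centres of CHM13 cells between its start and end was taken as its example, and of members with equal numbers the longest. ZNF83 in ZNF175 to ZNF331 had 4, with no centre of the other 5 lists inside the gene, although an SA2 peak of CHM13 cells lay within 1 kb of its start. ZNF577 of the same cluster also had 4, but with 3 centres of SA1 and 3 of SA2, and with 1 of RAD21 and 2 of SA1 in RPE-1 cells. ZNF627 in ZNF653 to ZNF791 had 2, with 2 of SA1 and 2 of SA2, and in RPE-1 cells 1 of RAD21, none of SA1 and 2 of SA2. ZNF439 equalled it in CHM13 cells, with 1 SA2 centre alone in RPE-1 cells. ZNF846 in ZNF414 to ZNF846 had 1 centre in each list but SA2 of RPE-1 cells. ZNF865 in ZNF628 to ZNF835 had 1 of each subunit in CHM13 cells and 1 of RAD21 in RPE-1 cells. The examples of the other 6 clusters were empty in RPE-1 cells: ZNF93 next to the centromere had 2 of RAD21, 1 of SA1 and 1 of SA2, ZNF556 1 of each, ZNF420 2, 1 and none, ZNF586 2, none and 1, ZNF235 1, none and 1, and ZNF30 1 of RAD21 alone. Members of equal RAD21 number in these clusters were not all alike, since ZNF565, with 2 as in ZNF420, had 1 centre of SA1 and 1 of SA2 and, in RPE-1 cells, 1 of RAD21 and 1 of SA1. ZNF585A also had 2, 1 and none, but it overlaps ZNF420, and peaks in the stretch they share were counted for both. Shorter members with 1 RAD21 centre were found beside ZNF846, ZNF865, ZNF235 and ZNF30. ZNF577, ZNF439, ZNF565 and ZNF585A are named after their values were seen.

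Members with a known role differed in the same way. ZNF93, which binds L1 elements, had body peaks of all 3 subunits in CHM13 cells, and ZNF91 none in any list. ZNF274 had 2 RAD21 peaks and 1 SA1 peak at its start in CHM13 cells. ZNF808, a repressor needed for pancreas development, had a RAD21 start peak there. ZNF473, which acts in histone mRNA processing, had a RAD21 and an SA2 peak in its body. ZNF331, an imprinted gene, and ZNF224, a repressor of the aldolase A gene, had none in the 6 lists. The widest peaks at members were a RAD21 peak of 1577 bp and an SA2 peak of 905 bp at the start of ZNF816 and an SA1 peak of 1121 bp at the start of ZNF576, all of CHM13 cells. In RPE-1 cells the widest were 489 bp for RAD21 at ZNF616, 404 bp for SA1 at ZNF565 and 398 bp for SA2 at ZNF491.

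RAD21 peaks of CHM13 cells at member starts were less often shared with both SA subunits than those at other starts. Of these, 9 of 54 RAD21 peaks at member starts (16.7%) overlapped both an SA1 and an SA2 peak, against 85 of 248 (34.3%) at other starts, a difference of -17.6 points (interval -27.4 to -4.29). For SA2 peaks of CHM13 cells the difference was -24 points (-48.96 to -2.14), for SA1 peaks -16.5 with an interval that held 0 (-35.2 to 5.20), and in all 3 RPE-1 lists, with 6, 1 and 1 start peaks at members, the interval held 0. All 15 SA2 peaks at member starts overlapped RAD21, as did all 100 at other starts. For SA1 it was 15 of 23 peaks (65.2%) at member starts and 108 of 142 (76.1%) at other starts. Over whole members, 41 of 41 SA2 peaks and 42 of 54 SA1 peaks (77.8%) of CHM13 cells overlapped a RAD21 peak. Every RPE-1 peak at a member (16 of RAD21, 6 of SA1 and 5 of SA2) overlapped a CHM13 peak of the same subunit. On the rest of chr19 nearly all did too, with 529 of 544, 234 of 234 and 209 of 210 peaks. In the other direction, 16 of 106 RAD21 peaks of CHM13 cells at members (15.1%) overlapped an RPE-1 peak. On the rest of chr19 it was 523 of 1498 (34.9%). The RPE-1 lists are the smaller ones, and the effect of this on the overlap was not tested.

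Letters of the CTCF core motif were searched as CCANNAGNNGGC on both strands, in the 300 bases at the centre of each peak. They were in 0 of 54 RAD21 peaks at member starts in CHM13 cells, which allows up to 5.56%, and in 26 of 248 peaks at other starts (10.5%), a difference of -10.5 points (interval -14.9 to -3.10). Of SA1 start peaks 0 of 23 held them and of SA2 start peaks 1 of 15 (6.67%), and the interval of the difference held 0 for both (-15.0 to 5.63 and -21.6 to 12.7) and in the RPE-1 lists. Away from member starts, 10 of 52 RAD21 peaks at members held them (19.2%), against 25.6% of the peaks elsewhere on chr19. Of all 300-base tiles of chr19, 1.16% held the letters, with 0.772% of tiles in members and 1.53% in other genes. Of RefSeq promoters (GRCh38.p14, from 250 bases before to 50 after the start), 2.41% of all 35116 held them, and 2.24% of the 268 listed for 216 of the 246 members. A match is a run of letters and not a measured CTCF site. All 8 named letters had to match, so a site that departs from any of them was missed. The stretch cctgtagggggc, in the bases printed above for ZNF491, departs at 1 letter. A peak without a match is therefore not shown to lack CTCF.

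Where the letters occurred in a member, they were less often under a peak than in other genes. Of 204 matches in members, from start to end, 10 (4.90%) lay under a RAD21 peak of CHM13 cells, against 225 of 1384 in other genes (16.3%), a difference of -11.4 points (interval -14.4 to -7.05). For SA1 the shares were 3.92% and 11.2%, and for SA2 2.45% and 11.6%. In RPE-1 cells they were 1.47% and 8.31% for RAD21, 0.490% and 3.69% for SA1, and for SA2 0 of 204, which allows up to 1.47%, against 2.60%. All 6 intervals of these differences lay below 0. Bases as a whole went the same way, with 0.678% of those in members and 2.35% of those in other genes under a RAD21 peak of CHM13 cells. Whether the matches differed beyond this was not tested. In the cluster next to the centromere 5 of 139 matches (3.60%) were under a RAD21 peak of CHM13 cells and none under one of RPE-1 cells, which allows up to 2.16%.

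The 10 matches under RAD21 peaks are printed because several of them turned out to be copies of one sequence. Each line gives 42 bases of hg38 on the strand on which the letters read forward, with the match in capitals, and all 10 lie in introns.
ZNF556: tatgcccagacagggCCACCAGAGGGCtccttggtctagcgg
ZNF93, first match: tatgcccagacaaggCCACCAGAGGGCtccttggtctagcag
ZNF93, second match: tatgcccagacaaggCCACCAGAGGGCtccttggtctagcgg
ZNF507: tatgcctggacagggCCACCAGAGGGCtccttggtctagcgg
ZNF383: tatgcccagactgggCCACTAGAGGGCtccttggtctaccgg
ZNF565: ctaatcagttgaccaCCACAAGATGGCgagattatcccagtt
ZNF536: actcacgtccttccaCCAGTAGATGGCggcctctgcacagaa
ZNF420: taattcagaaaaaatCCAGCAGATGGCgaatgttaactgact
ZNF417: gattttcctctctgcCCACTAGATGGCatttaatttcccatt
ZNF83: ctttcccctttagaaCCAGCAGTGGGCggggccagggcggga
The windows at ZNF556 (chr19:2872353-2872394), ZNF93 (chr19:19930585-19930626 and chr19:19959370-19959411), ZNF507 (chr19:32377290-32377331) and ZNF383 (chr19:37228201-37228242) share 39 to 42 of 42 bases with that of ZNF556. The other 5 share 14 to 18 bases with it. ZNF565 was under peaks of 5 lists and ZNF507 of 4, and the windows at ZNF556, the second of ZNF93 and ZNF383 were under those of RAD21, SA1 and SA2 in CHM13 cells only.

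The sequence was then searched over chromosomes 1 to 22 and X, allowing 6 mismatches to the window of ZNF556, a search made after the values were seen. There were 264 such windows, of which 39 (14.8%) lay on chr19, 17 of them in clusters of members and 6 in members themselves. The 5 that led to the search had been found under RAD21 peaks of CHM13 cells, and their being there is no finding. On the chromosomes other than 19, which gave none of the 5, 191 of 225 windows (84.9%) lay under a RAD21 peak of CHM13 cells and 39.6% under one of RPE-1 cells. On chr19 it was 33 of 39 (84.6%) in CHM13 cells, against 17.4% of the 2334 other matches of the core letters there, and 51.3% against 9.08% in RPE-1 cells. These chr19 shares of windows still count the 5, so only the other chromosomes are free of that choice. Inside the clusters of members 12 of 17 windows (70.6%) were under a RAD21 peak of CHM13 cells, against 21 of 22 on the rest of chr19 (95.5%), a difference of -24.9 points (interval -48.9 to -1.25). These counts and the interval include the 5, with 4 of them in the clusters and 1 outside. In RPE-1 cells it was 4 of 17 (23.5%) against 16 of 22 (72.7%), a difference of -49.2 points (interval -69.1 to -17.6). For the SA subunits of RPE-1 cells the intervals held 0. In members, 5 of the 6 windows were those printed above and the other, in ZNF441, was under no peak. The cluster next to the centromere had 5 windows, 3 of them under a RAD21 peak of CHM13 cells, the printed windows of ZNF93 included. The 2 others (chr19:21880949-21880990 and chr19:21890219-21890260) lay in its 847-kb stretch without such a peak.

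**Figure D4:**
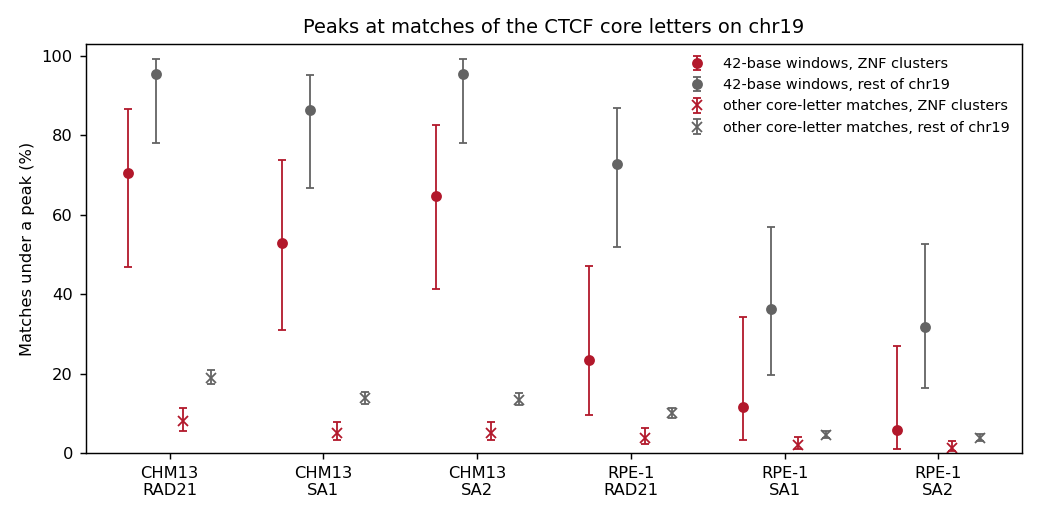
Share (%) of sequence matches under a peak in each list, for the 42-base windows (circles) and all other matches of the CTCF core letters (crosses), in clusters of members (red) and on the rest of chr19 (grey), with Wilson 95% intervals. For RAD21 in CHM13 cells the windows stand at 70.6% in clusters and 95.5% outside, and the other matches at 8.13% and 19.1%. The windows include those first found under RAD21 peaks of CHM13 cells, which led to the search.

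Genes of the pathway through which KRAB proteins act were read from a list of 16. At the start, 6 had a RAD21 peak of CHM13 cells, namely ATF7IP, CBX3, CBX5, DNMT1, PPHLN1 and MORC2, and 10 had one in the body. These counts lay near the share of all protein-coding genes, 32.9% at starts and 52.3% in bodies. ATF7IP, the partner of SETDB1, had start peaks of all 3 subunits in CHM13 cells and of RAD21 in RPE-1 cells. SETDB1 had an SA1 peak alone at its start. TRIM28, which lies on chr19 beyond the last cluster of members, had no peak in any list at its start, in its body or at its end.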

How the data were processed

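ChIP-seq of RAD21, SA1 and SA2 with total chromatin input was analysed from 6 lists of peak positions on hg38, in bp. By the methods of the study, the authors aligned reads with bwa mem, removed secondary and supplementary alignments with samtools, and used macs on each replicate. Peaks of replicates were then joined (GenomicRanges, reduce), without loci that a single replicate gave. These steps are stated for CHM13 v1.0, and those for hg38 are not given in the sources used here beyond the submitters' processing notes, which name bcl2fastq 2.20, BWA, SAMtools and MACS2. Reads with several matches were kept as primary alignments, so peaks in repeats may sit at one of several copies. CHM13 chromatin carried a Drosophila spike. Peak lists on CHM13 v1.0 were not used here.

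Genes came from GENCODE 44. The start and end zones were 1 kb to either side, the body was the rest of the gene, and 1 bp of overlap counted. Densities count peak centres per Mb without N and, like GC, repeat and motif values, take genes whole unless the body alone is named. Shares carry Wilson intervals, differences Newcombe intervals, densities exact Poisson intervals and ratios conditional exact intervals, at 95%. A count of 0 allows up to 3 counts. No test was possible between samples, since replicates are pooled, and depth per library is not in the lists. The reporting summary of the study gives it, with fewer reads in every RPE-1 pull-down than in those of SA1 and SA2 in CHM13 cells. Among the CHM13 RAD21 replicates it was uneven. A further RPE-1 replicate had been discarded for few reads. The effect of depth on the lists was not tested. C2H2 motifs were read from the translated canonical transcripts. CENP-B box matches closer than 100 kb were joined. Named genes were the member with the most RAD21 centres in each cluster (ties by length), the widest peaks, start peaks next to the centromere, members with known roles and a pathway list. Members, lists and comparisons were chosen with earlier results of these data known. The alternatives changed peak rule, windows, transcripts, comparison genes, cluster gap and density measure. Limits on length or GC applied to the other genes only, and all members were kept, so these comparisons are not matched. Python 3.11.15, numpy 2.4.6, pandas 2.3.3, scipy 1.17.1, Biopython 1.88 and matplotlib 3.10.9 were used, and the functions were tested on simulated peaks.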

Additional observations from a re-analysis of the deposited data

How the results depend on the processing

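No paired analysis was possible because each list pools the replicates of its group, and for the same reason leaving out a replicate was not possible. Of 270 values under alternative settings, 227 stayed within the spread of the reported value and 43 moved further. The 198 values for bodies, ends, densities and clusters all kept their direction. Some of these could not turn. The SA lists of RPE-1 cells had 0 peaks at member ends and in the cluster next to the centromere. Changing only the genes or clusters compared with could not raise these. At starts, where every reported interval held 0, 60 of 72 values kept their direction and 12 turned from lower to higher in members. For RAD21 of CHM13 cells at starts the sign also turned with peak centres (0.488), a window of 500 bp (1.54) and members outside the cluster next to the centromere (2.27). Comparisons with genes of the members' middle GC, with members outside the cluster next to the centromere, and without ZNF536 or the densest other cluster were chosen after seeing the data. Differences below are members minus other genes in percentage points, and the cause of each shift was not tested.

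Counting any transcript start, the difference at starts was -6.50, -9.43 and -8.13 for RAD21, SA1 and SA2 of CHM13 cells and -6.50, -3.33 and -3.58 for those of RPE-1 cells. Against other genes inside the clusters it was 6.77 and 3.91 at starts for RAD21 and SA1 of CHM13 cells and 2.44 for RAD21 of RPE-1 cells, -8.75 in bodies for SA1 of RPE-1 cells, and -5.68 and -1.54 at ends for RAD21 and SA1 of CHM13 cells. Against genes of the members' middle GC it was 6.57, 3.43 and 1.48 at starts for the same 3 lists, -19.6, -22.8 and -2.66 in bodies for the SA1 and SA2 lists of CHM13 cells and SA2 of RPE-1 cells, and -2.52, -0.852, -0.852 and -2.48 at ends for the CHM13 lists and RAD21 of RPE-1 cells, with a density ratio of 0.441 for RAD21 of CHM13 cells. Against genes of middle length, bodies gave -28.8, -19.2 and -20.7 in the CHM13 lists and -18.5 for RAD21 of RPE-1 cells. With peaks shared by all 3 subunits, RAD21 gave -4.62 in bodies and -1.46 at ends in RPE-1 cells and -4.07 at ends in CHM13 cells. The density ratio was then 0.226 and 0.228 for RAD21 and SA1 of CHM13 cells, with 0.0498 and 0.0491 for those of RPE-1 cells, and the ratio of the cluster next to the centromere to the others was 0 for RAD21 of RPE-1 cells. Among genes that overlap no other, ends gave -12.4, -8.47 and -8.20 in the CHM13 lists. With a window of 2500 bp, ends gave -16.4, -9.27 and -8.13 there and -8.29 for RAD21 of RPE-1 cells. In the inner body the density ratio was 0.240 for RAD21 of CHM13 cells.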

Other observations

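Zinc-finger genes with the same kind of symbol on other chromosomes, 262 in all, had RAD21 peaks of CHM13 cells at the start and in the body more often than the members of chr19, with intervals that did not overlap. A RAD21 peak of CHM13 cells lay at the start of 106 of them (40.5%, Wilson interval 34.7 to 46.5%), against 21.95% of the members (17.2 to 27.5%) and 32.9% of all protein-coding genes. The other genes of chr19 had 23.1%, so starts on that chromosome were low outside the family too. In the body it was 100 of 261 (38.3%, 32.6 to 44.3%) against 14.6% of the members (10.8 to 19.6%), and at the 3′ end 22 (8.40%, 5.61 to 12.4%) against 3.25% (1.66 to 6.28%), where the intervals overlapped. The body share was 35.9% for the other genes of chr19 and 52.3% for all protein-coding genes. In RPE-1 cells RAD21 was at 16 starts (6.11%) and in 43 bodies (16.5%) of the zinc-finger genes on other chromosomes, against 2.44% and 3.66% of the members. The intervals overlapped at starts (3.79 to 9.69% and 1.12 to 5.22%) and not in bodies (12.5 to 21.5% and 1.94 to 6.81%). Opposite-strand starts within 1 kb, as at shared promoters, were found at 19 members (7.72%), none of them next to the centromere, and at 197 other genes of chr19 (16.0%).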
